A study of Homo sapiens with 8 samples.

Results

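The genes described here encode the NALCN sodium leak channel complex: NALCN, UNC79, UNC80, FAM155A, its paralog FAM155B, and FAM155A-IT1, a transcript from within an intron of FAM155A. They are 6 of the 26372 gene rows of the table and were found by symbol. RNA of the established human neuroblastoma line BE(2)-M17 was sequenced after ribosomal RNA depletion, with 4 libraries from cells given interferon-γ (IFN-γ) at 10 ng/ml for 24 h and 4 from untreated cells. SH-SY5Y, another neuroblastoma line, is mentioned in the growth protocol, but every library is labelled M17. The treatment is the only difference that the labels give between the groups. Whether replicates were separate cultures is not stated, so p-values measure only the spread between libraries, which may be technical. The members were proposed with the levels of FAM155A in this comparison known, so the values of the 6 genes are a description and carry no test.

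NALCN forms the pore of a channel that is open at rest and lets a small, steady sodium current into neurons, which moves the resting potential towards threshold. The pore protein works in a complex. UNC79 and UNC80 are very large cytoplasmic proteins that bind each other and the pore, and FAM155A, now named NALF1, is a cysteine-rich membrane protein whose extracellular part covers it. In Caenorhabditis elegans the relative of FAM155A, NLF-1, helps the channel leave the endoplasmic reticulum. IFN-γ acts on its target genes through sites called GAS elements and, by way of IRF proteins, through sites called ISRE.

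The upstream sequence of FAM155A is shown because its RNA had the largest contrast between the groups among the genes that code for the channel, and that of FAM155A-IT1 because it lies in the same gene and shared the contrast. Both are the 250 bases before the RefSeq start on the minus strand of GRCh38.p14, at chr13:107867497-107867746 and chr13:107835459-107835708, with each CG dinucleotide in capitals. IRF1, a transcription factor gene that IFN-γ is known to induce, is given as a 49-base stretch at chr5:132490869-132490917, also minus strand, with its match to TTCNNNGAA in capitals.
FAM155A: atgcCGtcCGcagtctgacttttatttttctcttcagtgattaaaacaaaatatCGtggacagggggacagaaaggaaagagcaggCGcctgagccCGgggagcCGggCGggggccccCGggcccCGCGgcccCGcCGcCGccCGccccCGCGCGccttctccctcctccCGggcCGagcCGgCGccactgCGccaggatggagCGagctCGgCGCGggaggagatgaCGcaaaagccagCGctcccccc
FAM155A-IT1: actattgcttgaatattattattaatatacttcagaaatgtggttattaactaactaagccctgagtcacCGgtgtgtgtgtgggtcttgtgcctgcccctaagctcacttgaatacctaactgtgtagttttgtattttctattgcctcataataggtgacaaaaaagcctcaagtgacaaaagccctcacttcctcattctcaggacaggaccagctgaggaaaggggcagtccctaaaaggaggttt
IRF1: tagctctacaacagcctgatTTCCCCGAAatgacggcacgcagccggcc

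The FAM155A window held 28 CG dinucleotides and 69.2% G and C, more CG than in 84.1% of the 35116 RefSeq windows of the same length. The FAM155A-IT1 window held 1 CG and 41.6% G and C, with fewer CG in 6.06% of windows. All 6 symbols matched RefSeq, with 8 windows in all, since UNC79 has several starts. None of the 8 held the GAS letters TTCNNNGAA, which read the same on both strands and were in 6.57% of all windows, or the ISRE core, GAAA repeated after a gap of 2 bases, on either strand, which was in 3.02%. The absence says only that these letters are not in these windows.

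Levels are in FPKM, fragments for each kilobase of a transcript per 1e6 fragments mapped, and so can be compared between genes. From the spacing of low values, each library held an estimated 14.2 to 20.4 M fragments. The labels name a higher target of reads per library, and the denominator of the FPKM is not stated. Fragment numbers below rest on this estimate. The treatment left its mark on IRF1, at 125 ± 2.14 FPKM with IFN-γ and 0.584 ± 0.0404 untreated (SD, n = 4 each). Of 8 noradrenergic neuroblastoma markers, 7 were above the filter, MYCN at 1817 ± 93.0 FPKM with IFN-γ and 2003 ± 26.1 untreated (adjusted p = 0.239 by limma, and 0.00104 without IFN-γ replicate 4), and 1 was below it in both groups. The list's only called gene, PHOX2A, went the other way, at 196 ± 15.4 FPKM with IFN-γ and 151 ± 2.34 untreated (log2 change 0.37, adjusted p = 8.5e-04 by limma). Of 12 markers of other cells, 10 were below the filter, 2 of them, CD3E included, at 0 in all 8 libraries. The list summed to 154 to 197 FPKM with IFN-γ and 146 to 156 untreated, carried by DCN, at 143 ± 22.3 and 139.9 ± 4.40 FPKM, and PDGFRB, at 21.0 ± 1.52 and 8.20 ± 0.442 (log2 change 1.35, adjusted p = 9.5e-08). Their part in the values below was not tested. IFN-γ replicate 4 stood apart: it held the lowest IFN-γ value in 37.3% of the 13598 genes tested, which are the genes averaging 0.5 FPKM or more over the 8 libraries.

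Among the channel's genes, FAM155A and its intronic transcript were listed at 0 in each untreated library and were well above it in each IFN-γ library. UNC79 was 1.17 times its untreated mean, UNC80 0.914 times and FAM155B 0.855 times, and the pore gene NALCN was close to absent in both groups. The groups did not overlap in 4 of the 6 genes, 3 higher and 1 lower with IFN-γ. Of all genes tested, 28.2% did not overlap, 15.4% higher and 12.9% lower, and nothing is read from the members' count because they were chosen on this contrast. The filter was passed by 5 of the 6 genes. FAM155A and FAM155A-IT1 passed it only through their IFN-γ values, and NALCN did not pass.

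**Figure D1:**
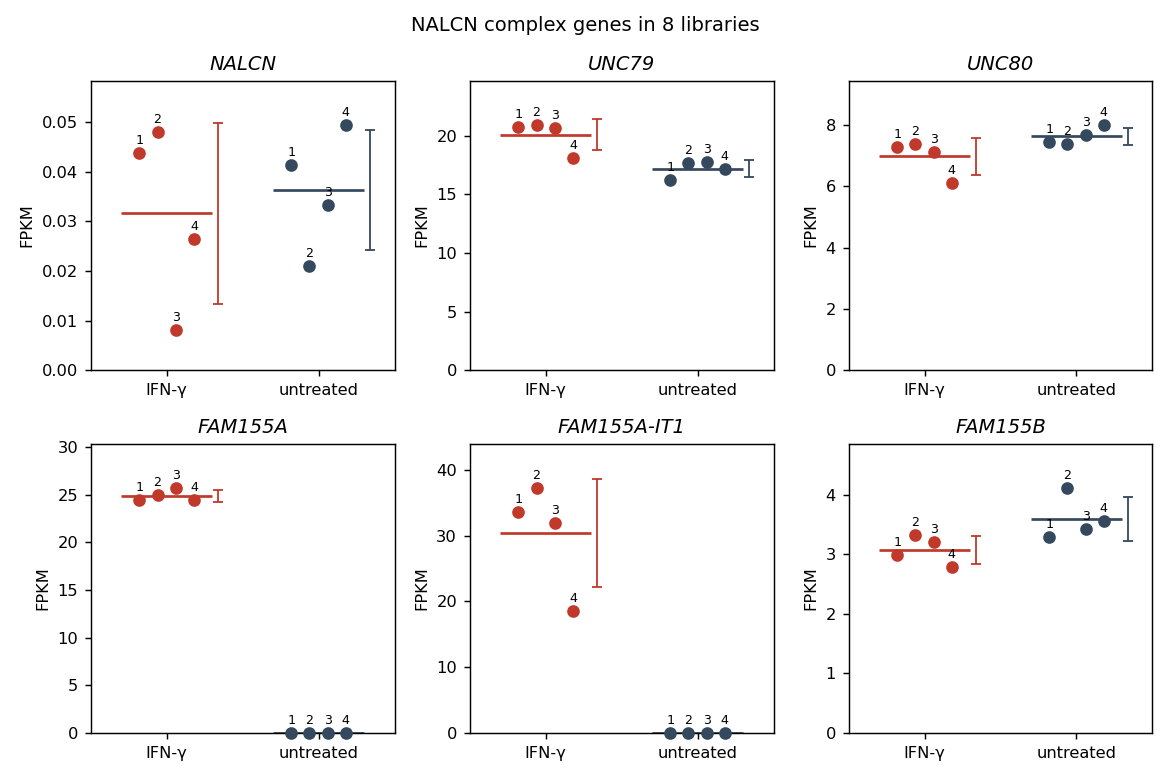
FPKM of the 6 genes in each library (points, numbered by replicate) for IFN-γ and untreated cells, on a linear axis from 0 in each panel. Horizontal lines are group means and bars are SD over 4 libraries. FAM155A and FAM155A-IT1 sit at 0 in all 4 untreated libraries, and replicate 4 is the lowest IFN-γ library for every gene but NALCN, for FAM155A by little.

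NALCN, the pore-forming subunit, was at 0.0438, 0.0481, 0.00816 and 0.0264 FPKM with IFN-γ and at 0.0414, 0.0210, 0.0332 and 0.0494 FPKM untreated. No library stood clear of the others, and the groups overlapped. For its longest annotated transcript of 7105 nt, 1 fragment is worth 0.00691 to 0.00992 FPKM, so these values stand for about 0.958 to 5.72 fragments with IFN-γ and 2.84 to 5.73 untreated. No fold is given for values that rest on so few fragments. The group means were 0.0316 ± 0.0182 FPKM with IFN-γ and 0.0363 ± 0.0121 untreated (SD, n = 4 each). No rank among the genes tested is given, because those genes were filtered to average 0.5 FPKM or more. The gene covers 363 kb of chromosome 13 (101053776 to 101416492, minus strand, GENCODE release 29 on GRCh38). NALCN-AS1, which overlaps it on the other strand, was as low, at 0.0211 to 0.0565 FPKM with IFN-γ and at most 0.0212 untreated. The libraries do not mark strand, so reads of the overlap cannot be told apart.

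UNC79 was the most abundant subunit RNA in untreated cells per unit length. It was at 20.7, 20.9, 20.7 and 18.1 FPKM with IFN-γ and at 16.2, 17.7, 17.7 and 17.2 FPKM untreated. The lowest IFN-γ library, replicate 4, lay just above the highest untreated one, so the groups did not overlap. The means were 20.1 ± 1.34 FPKM with IFN-γ and 17.2 ± 0.711 untreated (SD, n = 4 each), a log2 difference of 0.22 (SE 0.06). Without IFN-γ replicate 4 the IFN-γ mean was 20.8 ± 0.134 FPKM (n = 3). Rescaling to TPM, which gives every library the same sum of values, put the median log2 difference of all genes tested at 0.79, and TPM without short RNA genes put it at -0.096. The UNC79 difference was 1.02 in TPM and 0.13 in TPM without short RNA genes, or 0.24 and 0.23 relative to those medians. These levels correspond to about 2700 to 3467 fragments per library with IFN-γ and 2374 to 3051 untreated. UNC79 lies on chromosome 14 (93333219 to 93707876, plus strand).

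UNC80, the partner of UNC79, was at 7.30, 7.38, 7.13 and 6.11 FPKM with IFN-γ and at 7.45, 7.39, 7.69 and 8.002 FPKM untreated. The highest IFN-γ library and the lowest untreated one were almost equal, and replicate 4 was again the lowest with IFN-γ. The means were 6.98 ± 0.591 FPKM with IFN-γ and 7.63 ± 0.278 untreated, a log2 difference of -0.13 (SE 0.07), which was -0.069 without IFN-γ replicate 4 and 0.66 in TPM. Relative to the median of all genes there it was -0.12. UNC80 lies on chromosome 2 (209771993 to 209999300, plus strand).

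The balance of the large subunits does not depend on how libraries are scaled to each other. The ratio of UNC79 to UNC80 FPKM was 2.84, 2.83, 2.90 and 2.96 with IFN-γ and 2.18, 2.39, 2.31 and 2.15 untreated. All 4 IFN-γ ratios were above all 4 untreated ones, replicate 4 included. UNC80 was 154 to 873 times NALCN with IFN-γ and 162 to 351 times untreated, a range set by the few NALCN fragments.

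FAM155A, the auxiliary subunit, was at 24.5, 25.0, 25.7 and 24.4 FPKM with IFN-γ and was listed at 0 in all 4 untreated libraries. The IFN-γ libraries lay close together, replicate 4 included, and the groups were far apart. The IFN-γ level was above that of 77.5% of the genes tested and stands for about 3013 to 4229 fragments per library of its single annotated transcript of 8503 nt. No fold is given, because a value of exactly 0 in a table of this kind can also be a level that was not estimated. H3F3A, a histone gene that every cell uses and that was looked up after its values were seen, was listed at 0 in IFN-γ replicates 1 and 3 and in untreated replicate 3. Whether the 0 of FAM155A is an absence of RNA was not tested.

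FAM155A covers 703 kb of chromosome 13 (107163510 to 107866735, minus strand) with 3 exons that make up 1.21% of that length. Intron 1 alone is 655 kb long and holds FAM155A-IT1 (107788342 to 107835451), a sense intronic RNA of 2 exons and 819 nt that starts 31.3 kb after its host. Neither of its exons overlaps an exon of FAM155A. It is on the same strand, so mature FAM155A-IT1 and unspliced FAM155A RNA cannot be told apart by these values.

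FAM155A-IT1 was at 33.7, 37.3, 32.0 and 18.5 FPKM with IFN-γ and was listed at 0 in all 4 untreated libraries. The untreated zeros were in the same libraries as those of FAM155A, and IFN-γ replicate 4 was well below the other 3. Its ratio to FAM155A was 1.37, 1.49, 1.24 and 0.756 in IFN-γ replicates 1 to 4. At 819 nt the values rest on about 308 to 507 fragments per library. Other intronic transcripts were lower in the same library: of 24 others with an IFN-γ mean of at least 0.5 FPKM, 16 had their lowest IFN-γ value in replicate 4. Their median ratio of replicate 4 to the mean of the other 3 was 0.684, against 0.918 for their host genes, 0.997 over all genes tested and 0.539 for FAM155A-IT1. The part of RNA quality or unspliced RNA in that difference was not tested. The log2 difference between the groups in those 24 others ran from -1.26 to 1.39 with a median of -0.015.

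FAM155B, now named NALF2, is the paralog of FAM155A on chromosome X (69505241 to 69532508, plus strand). It was at 2.99, 3.32, 3.20 and 2.79 FPKM with IFN-γ and at 3.28, 4.11, 3.42 and 3.56 FPKM untreated. The groups overlapped by 1 library on each side. The means were 3.07 ± 0.236 FPKM with IFN-γ and 3.59 ± 0.364 untreated, a log2 difference of -0.22 (SE 0.09), which was 0.57 in TPM and -0.22 relative to the shifted median there. Summed over the pair of paralogs, FPKM was 27.2 to 28.9 with IFN-γ and 3.28 to 4.11 untreated. FAM155A made up 88.3 to 89.8% of the sum with IFN-γ and 0% of the listed value untreated.

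By level per unit length, the order with IFN-γ was FAM155A-IT1, FAM155A, UNC79, UNC80, FAM155B and NALCN. In replicate 4 FAM155A-IT1 was below FAM155A, within the range of UNC79. FAM155A and the other 4 genes were separate from each other in every library. Untreated, the order was UNC79, UNC80, FAM155B and NALCN, each separate from the next in every library, with FAM155A and FAM155A-IT1 listed at 0.

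**Figure D2:**
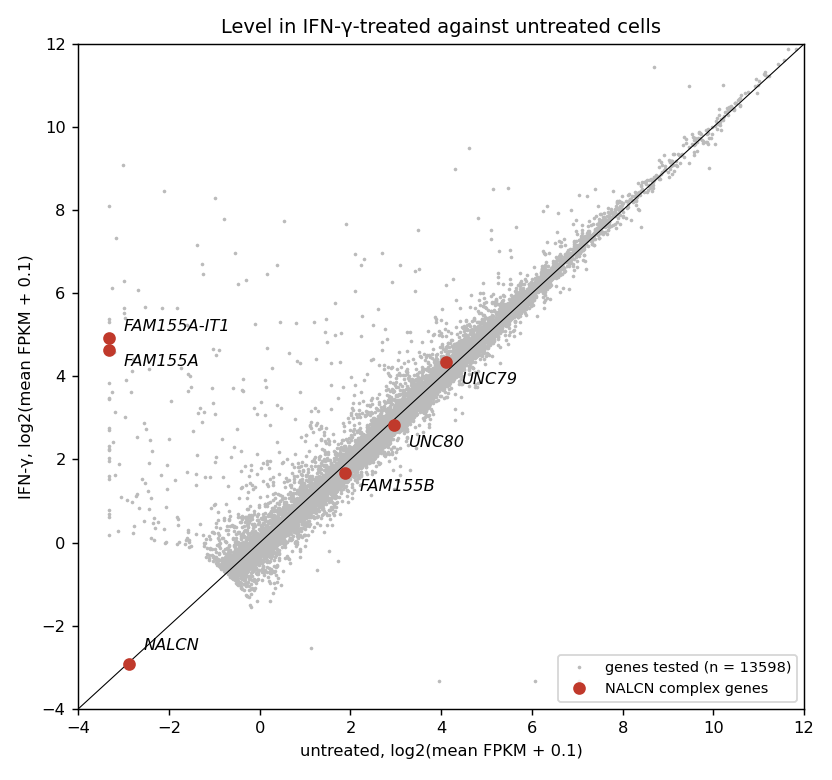
Mean level with IFN-γ (vertical) against untreated (horizontal), both as log2(mean FPKM + 0.1), for the 13598 genes tested (grey) and the 6 genes (red, named). The line marks equal levels, and 5 genes beyond 12 on these axes are not shown. FAM155A and FAM155A-IT1 lie at the left edge, where genes listed at 0 in untreated cells fall, while UNC79, UNC80 and FAM155B lie near the line.

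The pattern of FAM155A, listed at 0 in the untreated libraries and steady with IFN-γ, was shared by few genes of its level. Of 1300 genes with an IFN-γ mean between 20 and 30 FPKM, 2 were listed at 0 in all 4 untreated libraries, FAM155A and GBP5, and the median untreated level of the 1300 was 23.6 FPKM. Of 6497 genes averaging 10 FPKM or more with IFN-γ, 9 were above 0 in all IFN-γ libraries and at 0 in all untreated ones. Beside FAM155A and FAM155A-IT1 they were RARRES3, PSMB9, CXCL9, GBP5, HLA-DRB1 and CXCL11, which IFN-γ is known to induce, and the long non-coding RNA BANCR. These names were chosen after their values were seen. The reverse, 0 in all IFN-γ libraries beside an untreated mean of 10 FPKM or more and no untreated 0, held for 1 of 6372 genes, SNORD3A.

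The 5 genes most like FAM155A were found from the 8 values of log2(FPKM + 0.1), each taken relative to the gene's own untreated mean. Likeness is the root-mean-square difference from FAM155A over the 8 libraries. It was 0.069 for GBP5, a guanylate-binding GTPase, 0.11 for IFIT3, an antiviral RNA-response protein, 0.16 for APOL3, 0.28 for DDX60, an antiviral helicase, and 0.32 for IRF1. GBP5 was at 23.6, 24.9, 23.4 and 22.4 FPKM with IFN-γ and, like FAM155A, listed at 0 in every untreated library. For such a gene a small difference from FAM155A requires a similar level with IFN-γ. The match in level is therefore part of the measure and not a separate likeness. APOL3 was at 24.1, 23.1, 24.7 and 24.5 FPKM with IFN-γ and at 0.0296, 0, 0 and 0 untreated. The untreated zeros make this likeness depend on the pseudocount.

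**Figure D3:**
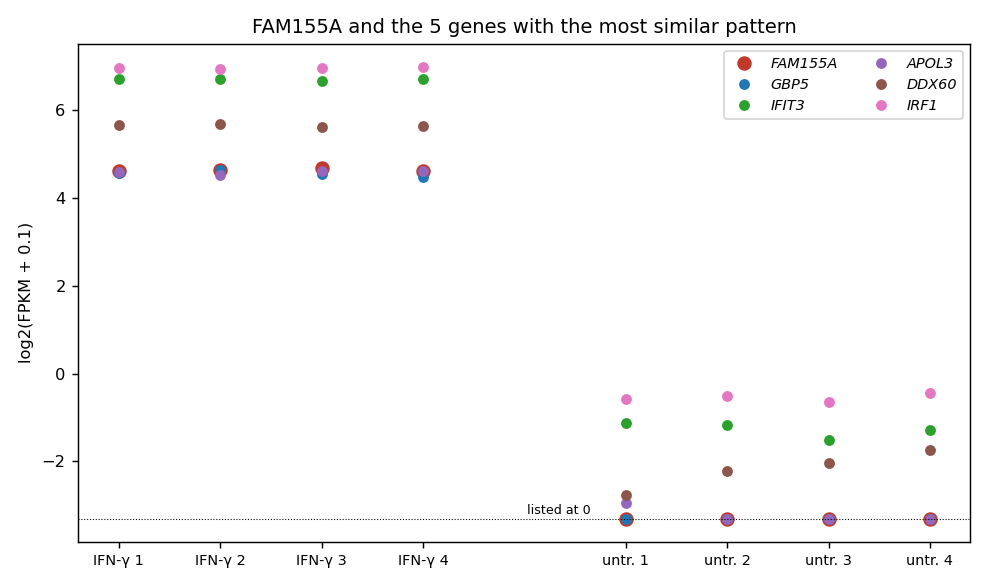
Levels of FAM155A and of the 5 genes with the closest pattern in each of the 8 libraries, as log2(FPKM + 0.1). The dotted line marks genes listed at 0. FAM155A, GBP5 and APOL3 lie on top of each other with IFN-γ, and IRF1 and IFIT3 are higher in both groups.

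Genes around FAM155A and NALCN on the long arm of chromosome 13 were examined for a change that followed position. Of 19 tested neighbours, 5 rose and 2 fell (limma adjusted p at most 0.05), beside 13.3% of all genes tested higher and 9.05% lower, 22.3% in all. The split was 14 higher and 0 lower in TPM, 5 and 5 with quantile normalization, and 4 and 3 in TPM without short RNA genes. In TPM, 9462 of the 13598 genes tested were called, 99.8% of them higher. Their median log2 difference was 0.015, against -0.0047 over all genes tested. The nearest coding genes did not share the contrast of FAM155A. ARGLU1, a splicing factor gene 0.595 Mb away on 1 side, was at 51.3 ± 5.39 FPKM with IFN-γ and 50.3 ± 1.15 untreated (log2 change 0.022, adjusted p = 0.845). LIG4, the DNA ligase of end joining, 0.341 Mb away on the other side, rose to 8.20 ± 0.188 FPKM with IFN-γ, against 6.77 ± 0.653 untreated (log2 change 0.28, SE 0.07, adjusted p = 0.0181), a call lost in TPM without short RNA genes and without untreated replicate 2 (adjusted p = 0.146 and 0.0514). ABHD13, next to LIG4, was at 7.44 ± 0.384 and 7.45 ± 0.449 FPKM (adjusted p = 0.997).

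Larger changes that passed lay 0.628 to 5.44 Mb from FAM155A and ran in both directions. FGF14, which encodes an intracellular partner of voltage-gated sodium channels, rose to 13.3, 13.4, 13.02 and 14.1 FPKM with IFN-γ, against 5.90, 7.15, 5.94 and 8.007 untreated (log2 change 1.00, SE 0.09, adjusted p = 3.0e-05). COL4A1, a basement membrane collagen chain, rose to 31.5 ± 4.36 FPKM, against 16.2 ± 0.406 untreated (log2 change 0.95, adjusted p = 3.4e-05), and ITGBL1 to 2.50 ± 0.158, against 1.48 ± 0.092 (log2 change 0.71, adjusted p = 3.6e-04). EFNB2, an ephrin ligand 0.628 Mb from FAM155A, fell to 1.24 ± 0.187 FPKM with IFN-γ, against 2.69 ± 0.177 untreated (log2 change -1.06, SE 0.12, adjusted p = 1.2e-04). These 4 kept their direction under every alternative, and EFNB2 alone lost its call, in TPM.

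**Figure D4:**
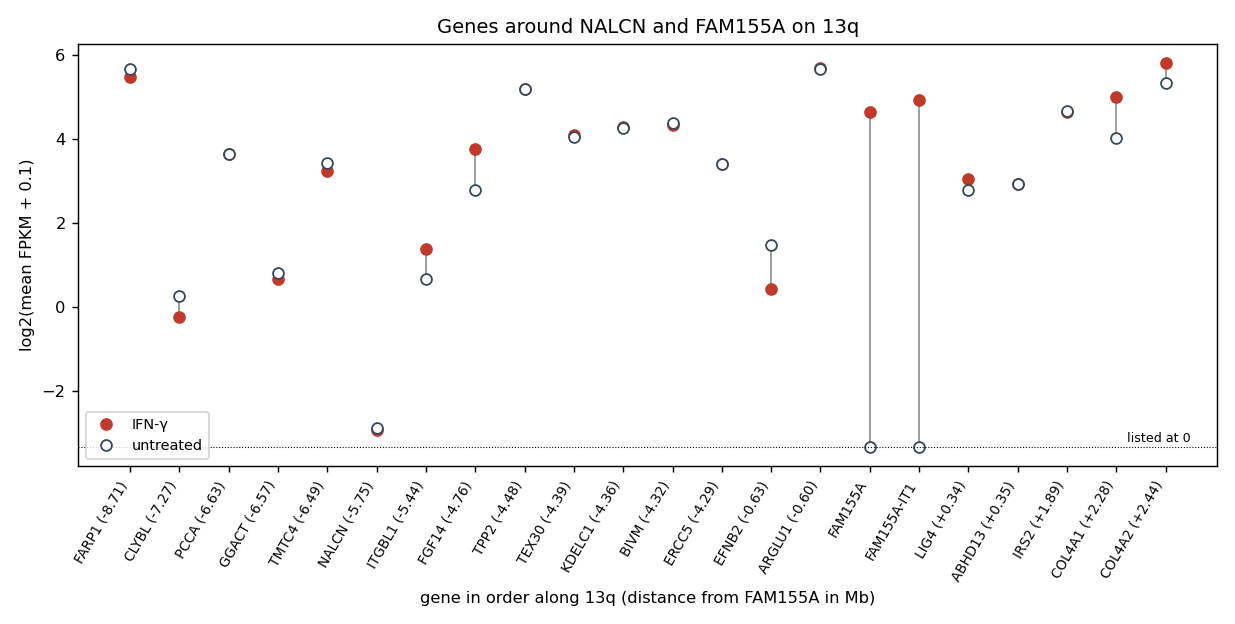
Mean levels with IFN-γ (filled) and untreated (open), as log2(mean FPKM + 0.1), of the listed 13q genes with a group mean above 0.5 FPKM and of NALCN, FAM155A and FAM155A-IT1, in order along the chromosome. Numbers beside names are distances from FAM155A in Mb. FAM155A and FAM155A-IT1 drop to the line for genes listed at 0 in untreated cells, while ARGLU1, LIG4 and ABHD13 beside them differ little.

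Other genes that set the resting potential or act on NALCN were also examined. Among receptors and kinases reported to act on NALCN, 2 of 6 tested fell and none rose, where 9.05% of all genes tested fell and 13.3% rose, shares that also stand behind the counts of the channel and pump lists. DRD2, the dopamine D2 receptor, fell to 3.47, 3.84, 4.33 and 3.61 FPKM with IFN-γ, against 7.65, 6.31, 7.33 and 7.07 untreated (log2 change -0.88, SE 0.09, adjusted p = 4.3e-05). SRC, a tyrosine kinase, fell to 10.3 ± 0.994 FPKM, against 12.97 ± 0.292 untreated (log2 change -0.34, adjusted p = 0.00473), and FYN was at 24.8 ± 1.26 and 25.2 ± 0.568 (adjusted p = 0.737). In TPM, DRD2 was at -0.090 and SRC at 0.46, neither called, and 2 of the list were called higher. Most of all genes tested were called higher in TPM, which stands behind every TPM count of these lists.

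Potassium channels open at rest oppose a sodium leak, while HCN channels carry an inward current themselves. Of 6 tested tandem-pore potassium leak channels, 1 rose, KCNK3 (TASK-1), to 20.4 ± 1.06 FPKM with IFN-γ, against 17.8 ± 0.284 untreated (log2 change 0.20, SE 0.04, adjusted p = 0.0107), lost in TPM without short RNA genes (adjusted p = 0.309). Without IFN-γ replicate 2, and without IFN-γ replicate 4, 2 of the 6 were called, 1 in each direction. KCNK1 was at 14.0 ± 0.872 and 12.4 ± 1.03 FPKM (adjusted p = 0.106). Of 6 tested inward rectifier and HCN channels, 1 fell, KCNJ14, at 1.73 ± 0.375 FPKM with IFN-γ and 2.45 ± 0.124 untreated (log2 change -0.50, adjusted p = 0.0383). No gene of this list was called without IFN-γ replicate 3 or without any 1 of the 4 untreated libraries, and in TPM 2 were called higher and none lower. Without a filter on low values 1 of 17 was called, higher and none lower. KCNJ11, below the filter, was at 0.695, 0.5898, 0.459 and 0.489 FPKM with IFN-γ and at 0.0875, 0.132, 0.111 and 0.1101 untreated, with no overlap. The most abundant of them, KCNJ8, was at 19.6 ± 2.70 FPKM with IFN-γ and 23.0 ± 0.252 untreated (adjusted p = 0.0564), and it passed without IFN-γ replicate 4 (adjusted p = 1.9e-05) and with the replicate block (adjusted p = 0.0478). HCN2 was at 4.60 ± 0.716 and 5.41 ± 0.559 FPKM (adjusted p = 0.175, and 0.0491 without IFN-γ replicate 2).

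Of 6 tested subunits of the sodium pump, which exports the sodium that leaks in, 3 fell and none rose. In TPM, where most of all genes tested were called higher, 3 of the list were called higher and none lower. ATP1B1, a beta subunit, was at 191 ± 10.8 FPKM with IFN-γ and 177 ± 2.38 untreated (adjusted p = 0.117) and passed without IFN-γ replicate 4 (adjusted p = 0.0279) and in TPM (0.015).

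Voltage-gated sodium and calcium channels share the fold of NALCN. Of 7 tested pore subunits, 2 rose and none passed as lower. CACNA1H just missed, at 1.78 ± 0.407 FPKM with IFN-γ and 2.52 ± 0.144 untreated (log2 change -0.51, adjusted p = 0.0503). A lower call of 1 pore subunit appeared with quantile normalization, without IFN-γ replicate 4 and with a pseudocount of 1. It also appeared under median-of-ratios scaling and when the filter was raised to 1 FPKM. With the filter dropped, 19 were tested, 3 called higher and 1 lower. The gene behind each lower call was not identified. Below the filter, SCN1A was at 0.154 ± 0.0272 FPKM with IFN-γ and 0.375 ± 0.0278 untreated. SCN11A went the other way, at 0.110 ± 0.0382 and 0.0388 ± 0.0139 FPKM. Neither gene's groups overlapped. SCN2A rose to 5.46, 5.17, 5.76 and 5.02 FPKM with IFN-γ, against 1.76, 1.89, 2.05 and 1.86 untreated (log2 change 1.45, SE 0.08, adjusted p = 3.9e-07). SCN9A rose to 12.2 ± 0.928 FPKM, against 4.58 ± 0.1997 untreated (log2 change 1.39, SE 0.07, adjusted p = 1.2e-07). Both passed under every alternative. Of 11 tested auxiliary subunits, 1 rose and 4 fell, SCN3B to 11.7 ± 1.09 FPKM, against 19.8 ± 0.471 untreated (log2 change -0.75, adjusted p = 1.7e-05), and CACNA2D3 to 4.46 ± 0.618, against 7.87 ± 0.727 (log2 change -0.81, adjusted p = 2.9e-04). Neither passed in TPM, where SCN3B was at 0.047 and 6 of the list were called higher and none lower. The median log2 differences of the pore subunits, auxiliary subunits, tandem-pore channels, inward rectifier and HCN channels, pump subunits and receptors with kinases were 0.050, -0.052, 0.092, -0.24, -0.090 and -0.068.

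**Figure D5:**
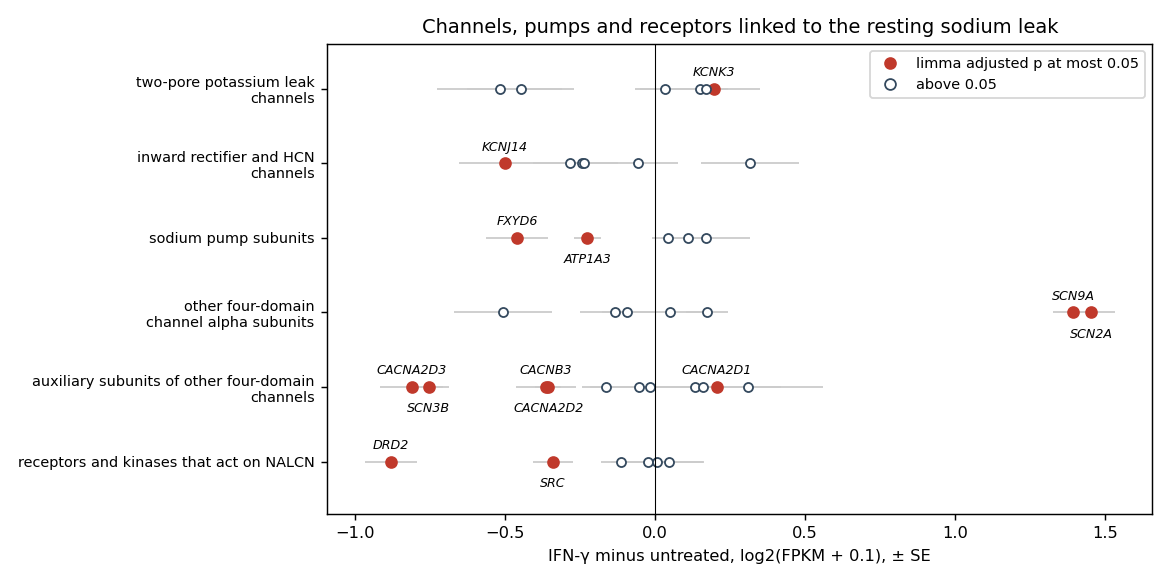
Difference between IFN-γ and untreated cells in log2(FPKM + 0.1), ± SE, for the tested genes of the channel, pump and receptor lists, 1 row per list, with 1 pump subunit not shown. Filled points passed a limma adjusted p of 0.05 and are named. SCN2A and SCN9A stand to the right of the other genes, near 1.4, and DRD2, CACNA2D3 and SCN3B lie farthest to the left.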

How the data were processed

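The deposited values are FPKM per gene in 8 libraries, 4 of IFN-γ-treated and 4 of untreated cells. The submitters' processing notes name TopHat2, Cuffdiff and the hg38 build, with no versions, options or annotation. Per the labels, RNA was depleted of ribosomal RNA and read as pairs of 150 nt, from a library kit that does not mark strand.

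No counts were given, so no count model was used. The two-sided test was limma-trend (limma 3.58.1 in R 4.3.3) on log2(FPKM + 0.1) in the 13598 genes averaging 0.5 FPKM or more, with Benjamini-Hochberg adjustment over all of them and a threshold of 0.05. A fold change on that scale understates the change of low genes. For the 6 members, differences of group means are given with SE and no p. Fragments were estimated from the steps of low values and GENCODE release 29 transcript lengths, approximately. Positions are from the same release and sequences from RefSeq. The members and the gene lists were chosen with earlier results of these data known. Named genes of a list are its called genes with an absolute log2 change of at least 0.58 and a level of at least 1 FPKM, at most the 4 largest. A list with fewer than 2 such genes also gives its 2 most abundant, and MYCN, IRF1, ARGLU1 and LIG4 are named as well. ABHD13, KCNJ11, KCNJ14, CACNA1H, SCN1A, SCN11A, PHOX2A, CD3E, NALCN-AS1, FGF14-IT1 and FGF14-AS2 were named after their values were seen. A sodium pump subunit that met this rule is left out. Alternatives were other pseudocounts, filters, scalings and limma settings, the replicate number as a block, and each library left out.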

Additional observations from a re-analysis of the deposited data

Results flagged for a closer look

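In 56 groups of 4 libraries, taken over the members and the named list genes, 8 held a library whose gap to its nearest neighbour was unusually large for the group's range, where chance gives about 1 in 20. The lowest IFN-γ value of UNC79 (18.1 FPKM), SCN3B (10.1 FPKM) and COL4A1 (25.0 FPKM) and the highest of KCNJ8 (23.6 FPKM), FYN (26.6 FPKM) and DCN (177 FPKM) were all in IFN-γ replicate 4. The highest untreated values of KCNJ8 (23.4 FPKM) and DCN (146 FPKM) were in untreated replicate 4.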

How the results depend on the processing

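On the log2 scale the FAM155A difference was 7.97, a value set by the pseudocount, since the untreated libraries are at 0: it was 4.70 with a pseudocount of 1 and 11.28 with 0.01, 7.93 with quantile normalization, 8.62 in TPM and 9.17 in TPM without short RNA genes, and 7.95 to 7.97 with each library left out. Of 3039 genes called, 59.5% were higher, against 36.4% of 4042 with quantile normalization, 99.8% of 9462 in TPM, where the median was 0.79, and 39.1% of 2921 in TPM without short RNA genes, and with each library left out 2328 to 3863 were called. The 13q neighbours called came to 14 in TPM and 10 with quantile normalization, the pore subunits to 4 without a filter and in TPM, and the tandem-pore channels to 3 in TPM and 0 in TPM without short RNA genes. The inward rectifier and HCN channels gave 2 with quantile normalization, in both TPM settings and without the trend. With each library left out, calls were 6 to 8 of the 13q neighbours, 4 to 6 auxiliary subunits, 0 to 2 inward rectifier and HCN channels, 2 to 3 pore subunits, 2 to 2 receptors and kinases, 3 to 4 pump subunits and 1 to 2 tandem-pore channels. Among the named list genes and markers, the signs of FYN (0.78), HAND2 (0.76), MYCN (0.66), SCN3B (0.047), SRC (0.46), HCN2 (0.55) and KCNJ8 (0.56) turned in TPM, and those of DCN (-0.15), ARGLU1 (-0.084) and ATP1B1 (-0.048) with quantile normalization. ARGLU1 and DCN also turned in TPM without short RNA genes (-0.070 and -0.068) and without IFN-γ replicate 4 (-0.048 and -0.081). SNORD3A, a short RNA gene, counts in the sum that TPM makes equal. It was listed at 668784, 829316, 37841.6 and 741029 FPKM in untreated replicates 1 to 4 and at 0 in every IFN-γ library. For the changes between settings the cause, and the part of SNORD3A, was not tested. Same-numbered libraries deviated together by r of -0.028 to 0.079, so the numbers were not taken as pairs. For 3 of the 4 IFN-γ libraries the best match among the untreated ones had the same number, so whether they were pairs is not known. The replicate block gave 2656 calls. Depth limits NALCN, at an estimate of fewer than 6 fragments per library.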

Other observations

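Other transcripts of the FGF14 locus, looked up after the values of FGF14 were seen, were also higher with IFN-γ. The intronic FGF14-IT1 was at 20.1, 19.1, 19.5 and 13.4 FPKM with IFN-γ and at 10.9, 11.6, 10.4 and 10.2 untreated (log2 change 0.72, limma adjusted p = 0.00147). The antisense FGF14-AS2 was at 22.1 ± 2.02 FPKM with IFN-γ and 13.5 ± 0.391 untreated (log2 change 0.71, limma adjusted p = 2.3e-05). IFN-γ replicate 4 was the lowest of the IFN-γ libraries for both, as for FAM155A-IT1, but not for FGF14 itself. The libraries do not mark strand, so both values cannot be told apart from unspliced FGF14 RNA where it overlaps them.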
